A study of Mus musculus with 6 samples.

Results

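The coronins are actin-binding proteins, and 6 mouse genes of the family (Coro1a, Coro1b, Coro1c, Coro2a, Coro2b and Coro7) were followed here by every probe whose platform annotation carried one of their symbols. These are 6 of the 15967 named genes on the array, and 10 of its 24611 probes, with 3 for Coro1a, 2 each for Coro2a and Coro2b, and 1 each for Coro1b, Coro1c and Coro7. The family was taken up because Coro1a was known to be lower in the knockout in these data. Its difference between genotypes is therefore given as a description, without a test, and the other 5 genes entered by their name.

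Transcripts were measured on 6 Illumina bead arrays, 1 per sample. The cells were megakaryocyte progenitors of C57BL/6 mouse bone marrow, sorted as CD41+ c-kit+ after a night in stem cell factor and thrombopoietin, and then grown for 3 days in thrombopoietin. The 3 knockout (KO) samples are labelled SRF ko, with Srf deleted by Cre recombinase that the Pf4 promoter drives in the megakaryocyte lineage, and the 3 wild-type (WT) samples are labelled SRF wt. The series describes both as mice of the PF4-Cre/SRF cross and does not say whether the wild-type mice carried Cre; ages are not given. The numbered replicates are not tied to single animals, so a p-value reflects the spread among these samples, which may be technical.

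Coronins bind the sides of actin filaments through a propeller of WD repeats, and most assemble with each other through a coiled coil at their end. They are known to restrain the Arp2/3 complex, which starts filament branches, and to help cofilin take filaments apart. Coro1a is the form typical of blood cells, Coro1b and Coro1c are widespread, Coro2b is known mainly from the nervous system, and Coro7 carries paired propellers and is known from the Golgi apparatus. Srf encodes serum response factor, which binds a DNA element called the CArG box in many genes of the actin cytoskeleton.

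The deleted gene matched the labels. Srf (probe ILMN_2769688) lay at log2 7.35, 7.56 and 7.20 in the KO arrays, against 12.31, 11.89 and 11.98 in the WT arrays (limma adjusted p = 5.4e-05). All 8 megakaryocyte markers on the array, among them Itga2b (CD41) and Pf4, were detected on all 6 arrays, where detection means a detection p under 0.05 against the negative control beads. Every KO array lay above every WT array for Itga2b, Gp1bb and Pf4 (differences of 0.47, 0.77 and 0.33). Every KO array lay below every WT array for Ppbp (-0.82). The other megakaryocyte markers overlapped, and none of these differences passed the test (limma adjusted p of 0.25 or more). Over all tested probes, 18.9% had the groups apart. The arrays detected 9801 to 10364 probes each. Mast cell and basophil transcripts, by summed intensity, were higher in WT replicates 2 and 3 than in the other arrays. Erythroid markers were too, at 2120 and 2380 against 657 to 741. Among these Car1 and Klf1 were higher there, while Epor was not and Hba-a1 was detected nowhere. The part of erythroid cells in the Coro1a difference was not tested. Granulocyte transcripts, by summed intensity, were high in WT replicates 2 and 3 and also in KO replicate 1, though not every member followed. The values of the mast cell and basophil and the granulocyte markers are given beside Coro1a below.

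The promoters of the family are shown because the deleted protein binds DNA. The RefSeq table for mouse GRCm38.p6 gave 7 windows for 5 of the 6 genes, each from 250 bases before to 50 bases after an annotated start site, and none for Coro1b. The pair of Coro1a windows, chr7:126704767-126705066 and chr7:126704171-126704470, and the Coro1c window, chr5:113908657-113908956, all on the minus strand, read 5′ to 3′ as follows, and a CArG box with at most 1 mismatch would stand in capitals.
Coro1a, window 1: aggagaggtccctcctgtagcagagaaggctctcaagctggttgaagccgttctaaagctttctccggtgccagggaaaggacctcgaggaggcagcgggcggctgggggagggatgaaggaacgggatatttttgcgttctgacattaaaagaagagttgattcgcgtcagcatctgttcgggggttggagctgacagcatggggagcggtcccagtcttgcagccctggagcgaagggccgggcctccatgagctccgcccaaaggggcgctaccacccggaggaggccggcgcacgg
Coro1a, window 2: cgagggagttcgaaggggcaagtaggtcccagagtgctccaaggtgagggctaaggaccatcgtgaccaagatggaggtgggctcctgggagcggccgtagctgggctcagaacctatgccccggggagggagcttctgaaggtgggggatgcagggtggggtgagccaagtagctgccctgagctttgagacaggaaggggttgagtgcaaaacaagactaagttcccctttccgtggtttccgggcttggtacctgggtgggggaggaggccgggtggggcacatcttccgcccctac
Coro1c: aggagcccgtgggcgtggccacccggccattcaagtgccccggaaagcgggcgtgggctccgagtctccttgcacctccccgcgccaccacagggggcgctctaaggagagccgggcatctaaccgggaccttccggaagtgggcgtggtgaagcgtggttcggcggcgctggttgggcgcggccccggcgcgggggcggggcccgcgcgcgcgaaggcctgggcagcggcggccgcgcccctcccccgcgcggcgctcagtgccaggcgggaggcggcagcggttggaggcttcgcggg

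None of the 7 coronin windows held an exact CArG box, searched as the element's 10-base consensus, which reads the same on both strands. Of all 32851 windows in the table, 1.63% held one. With 1 mismatch allowed, 1 of the 7 windows matched, against 21.1% of all windows. That match was in the second Coro2a window, on chromosome 4, read CCAGAAAAGG and began 237 bases before the start site (position -237). The Coro1a windows, with 61.3% and 62% G and C, held no match at either stringency. A missing match says only that these letters are not in these windows.

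Coro1a was lower in the KO by all 3 of its probes, with every KO array below every WT array on each, as for 9.08% of all 9403 tested probes; nothing is read from this share, because the family was chosen on this difference. On the brightest probe (ILMN_2714796) it lay at log2 12.50, 12.15 and 12.24 in the KO arrays, against 14.49, 14.51 and 14.49 in the WT arrays. On this probe, after normalization, the WT arrays were almost level while the KO arrays spread over a wider range. The other Coro1a probes did not show this (SD 0.06 and 0.12 in the KO, 0.09 and 0.12 in the WT). Every KO array lay far below every WT array. The group means were 12.30 ± 0.18 in the KO and 14.49 ± 0.01 in the WT (SD, n = 3 each). The difference was -2.20 (SE 0.14), which is 4.58-fold lower. Each SE of a difference given here comes from the limma fit, which also draws on the spread of all tested probes.

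The other Coro1a probes showed larger differences. ILMN_2747060 lay at 9.53, 9.42 and 9.51 in the KO arrays, against 12.19, 12.36 and 12.29 in the WT arrays, a difference of -2.79 (SE 0.13). ILMN_2733793 lay at 9.33, 9.54 and 9.36 in the KO arrays, against 12.34, 12.23 and 12.10 in the WT arrays, a difference of -2.81 (SE 0.14). These probes were 6.93-fold and 7.02-fold lower and gave nearly the same value, apart from the smaller fold of the brightest probe. Set against the WT mean of the same probe, KO replicates 1, 2 and 3 lay at -2.0, -2.34 and -2.25 on the brightest probe. They lay at -2.75, -2.86 and -2.77 on ILMN_2747060 and at -2.89, -2.68 and -2.86 on ILMN_2733793, so no KO array reached as far down on the brightest probe as on either of the others. All 3 probes are annotated to the same RefSeq transcript, so they are not separate replicates of the genotype.

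The size of the difference varied with how the values were made. In the raw intensities, with no background taken off, the brightest probe read 5066, 5643 and 5862 in the KO arrays, against 23820, 23960 and 19340 in the WT arrays, and the ratio of the WT mean to the KO mean was 4.05. The same ratio was 5.01 for ILMN_2747060 and 5.03 for ILMN_2733793. On the authors' processed log2-like scale the differences were -2.24 for the brightest probe and -2.44 for each of the others, so the 3 probes lay closer together there. The WT readings of the brightest probe were below the highest reading of any probe on each array, which ran from 47080 to 54010. The standard error over the beads of the brightest probe was 3.38% to 7.70% of its raw intensity, and it was read from 28 to 40 beads per array.

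**Figure D1:**
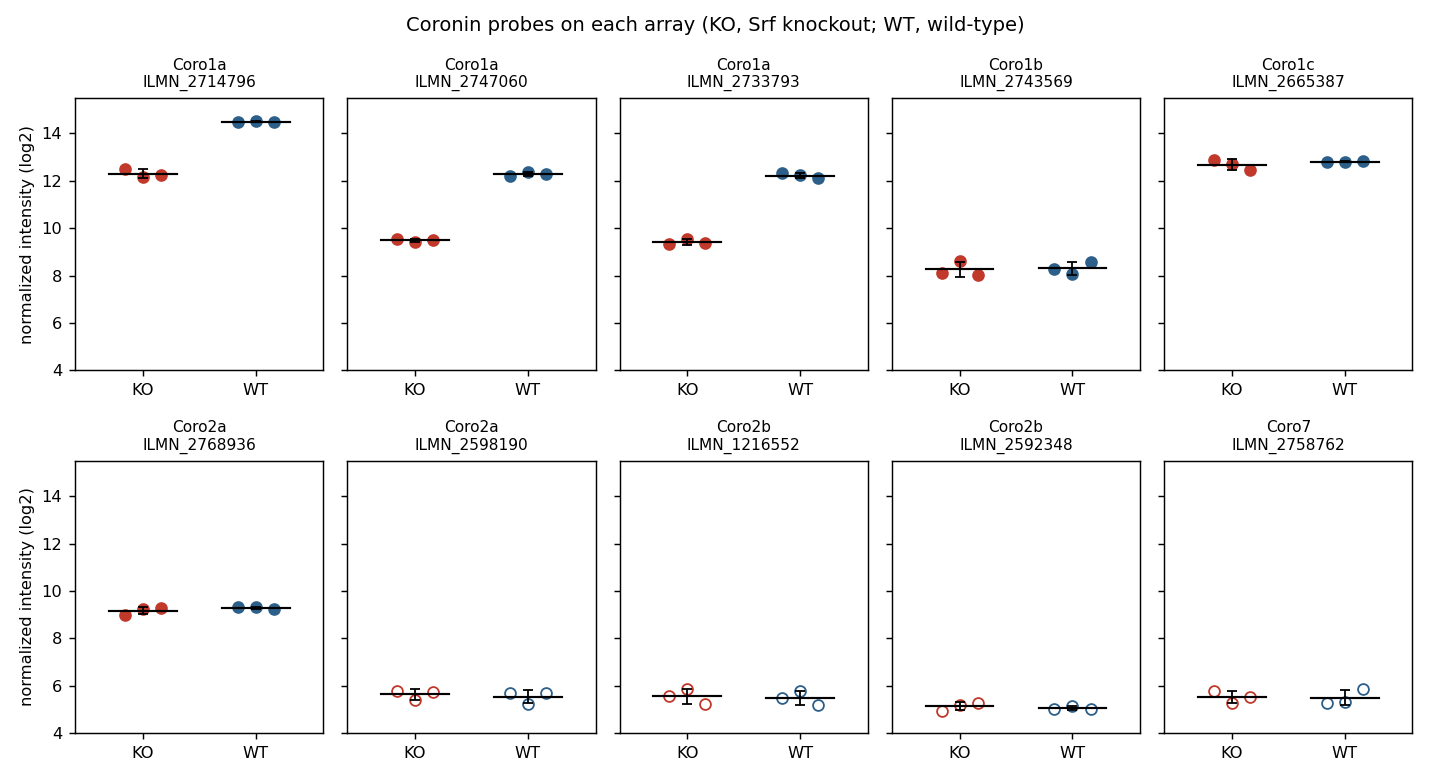
Normalized log2 intensity of the 10 coronin probes, in KO and WT arrays (3 each; points are arrays, horizontal lines are means, bars are SD, open points were not detected). The 3 Coro1a probes are lower in every KO array, the probes of Coro1b, Coro1c and the brighter Coro2a probe overlap between the groups, and the other 4 probes have open points only. Heights of different probes are not comparable as transcript levels.

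The remaining detected coronins had overlapping groups and did not pass the test. A probe was tested if all 3 arrays of either group detected it; 6 of the 10 probes qualified, and these covered 4 of the 6 genes. With Coro1a set aside, 0 of 3 tested coronin probes were called at a limma adjusted p under 0.05, against 0.16% of all 9403 tested probes, and their lowest unadjusted limma p was 0.39. The groups overlapped on all 3, while they were apart on 18.9% of all tested probes.

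Coro1c, a widespread coronin known from the leading edge of moving cells, was detected on all 6 arrays (ILMN_2665387). It lay at log2 12.88, 12.73 and 12.44 in the KO arrays, against 12.80, 12.78 and 12.84 in the WT arrays. The WT arrays were close together, and KO replicate 1 lay above them while the other KO arrays lay below. The difference was -0.12 (SE 0.15, limma adjusted p = 0.73), with a 95% interval from 0.715-fold to 1.18-fold of the WT level.

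Coro1b, which antagonises cortactin at branches near the cell edge, lay at log2 8.12, 8.63 and 8.04 in the KO arrays, against 8.26, 8.05 and 8.58 in the WT arrays (ILMN_2743569). Both groups spread over a similar range and overlapped. The difference was -0.03 (SE 0.21, limma adjusted p = 0.96), with a 95% interval from 0.693-fold to 1.38-fold. This probe was read from 12 to 22 beads per array, and its bead standard error reached 16.5% of the raw intensity, the highest among the coronin probes.

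Coro2a, a member of the second coronin class, was detected by 1 of its 2 probes. ILMN_2768936 lay at log2 8.98, 9.22 and 9.27 in the KO arrays, against 9.31, 9.31 and 9.23 in the WT arrays. KO replicate 1 was the lowest array, and the other KO arrays were close to the WT arrays. The difference was -0.13 (SE 0.14, limma adjusted p = 0.69), with a 95% interval from 0.731-fold to 1.15-fold. The second Coro2a probe (ILMN_2598190) was not well above background on any array, so it gave no comparison.

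The intervals of Coro1b, Coro1c and Coro2a leave room for modest changes in either direction, and a p that misses the threshold does not show that they were unaltered. Their lower ends were 0.693-fold, 0.715-fold and 0.731-fold of the WT level. The Coro1a probes measured 0.218-fold, 0.144-fold and 0.142-fold, which are given without intervals. The difference between Coro1a and the other coronins was not tested, because Coro1a was chosen on this contrast.

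Coro2b and Coro7 were not well above background on any of the 6 arrays, by both Coro2b probes (ILMN_1216552 and ILMN_2592348) and the single Coro7 probe (ILMN_2758762). Their log2 values ran from 4.94 to 5.86 in the KO arrays and from 5.0 to 5.84 in the WT arrays, with detection p from 0.085 to 0.88 in the KO and from 0.094 to 0.81 in the WT. No fold is given for these probes. A probe at background bounds its own signal and does not show that the transcript was absent.

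**Figure D2:**
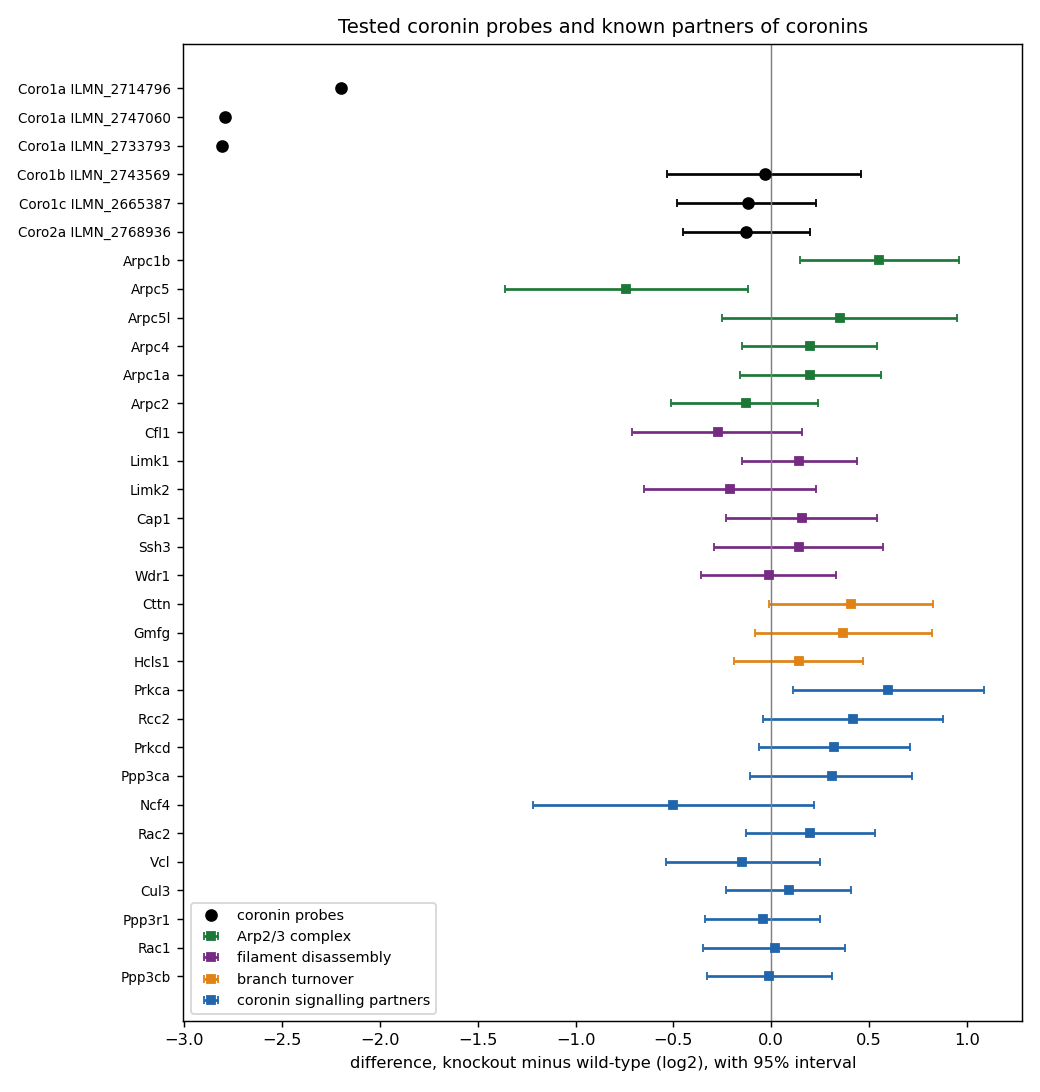
Difference of KO minus WT (log2) for the 6 tested coronin probes and the 26 tested genes of 4 lists of known coronin partners, with 95% intervals from limma except for Coro1a, on which the family was chosen. The Coro1a probes lie at -2.20, -2.79 and -2.81, while the other coronins and all partners lie between -0.74 and 0.60.

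Transcripts of other blood cells differed widely between the arrays, and their part in the Coro1a difference was not tested. Markers of granulocytes were detected for 11 of 12 members on the array on at least 1 of the 6 arrays, and their summed normalized intensity ran from 1890 to 29800 in the KO and from 2170 to 57700 in the WT. Mpo, a granule enzyme of neutrophil precursors, lay at log2 13.07, 8.13 and 8.98 in KO replicates 1 to 3, against 7.64, 14.74 and 14.93 in WT replicates 1 to 3. Elane, Prtn3, Ctsg, Fcnb, Lcn2, S100a8 and S100a9 were also higher in KO replicate 1 and WT replicates 2 and 3 than elsewhere. Camp, Ngp and Ltf were highest in KO replicate 1 and not raised in WT replicates 2 and 3. Camp lay at 9.61, 7.92 and 8.44 in the KO arrays, against 7.68, 8.03 and 7.88 in the WT arrays. WT replicate 1 had the lowest Mpo and WT replicate 3 the highest, and their Coro1a values were both 14.49 on the brightest probe.

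Mast cell and basophil markers, by summed intensity, were high in WT replicates 2 and 3 and lowest in WT replicate 1. Of 13 on the array, 6 were detected nowhere, among them Mcpt4, Cma1, Tpsb2 and Tpsab1, and the summed intensity ran from 680 to 882 in the KO and from 582 to 14700 in the WT. Cpa3, a protease of these cells, lay at 8.21, 7.17 and 8.09 in the KO arrays, against 6.62, 12.64 and 12.88 in the WT arrays. With WT replicates 2 and 3 left out, the Coro1a differences were -2.19, -2.70 and -2.93 for ILMN_2714796, ILMN_2747060 and ILMN_2733793. With all arrays they were -2.20, -2.79 and -2.81. In the smaller fit the lone WT array is assumed to vary like the KO arrays. The part of mast cells and basophils in the Coro1a difference was not tested.

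Lymphocytes are also known for high Coro1a. Of 8 lymphocyte markers on the array 5 were detected nowhere, including the T cell genes Cd3e, Cd3d and Cd4 and the B cell gene Cd79a, and the summed intensity ran from 749 to 1000 in the KO and from 681 to 2470 in the WT. Cd79b lay at 7.25, 7.64 and 7.65 in the KO arrays, against 8.12, 8.73 and 8.11 in the WT arrays, so its groups were apart, and its part in the Coro1a difference was not tested. Nkg7, a cytotoxic granule gene, lay at 9.23, 8.28 and 8.78 in the KO arrays, against 7.34, 10.84 and 10.92 in the WT arrays, and was lowest in WT replicate 1. Its part in the Coro1a difference was not tested either. Monocyte and macrophage markers summed to between 2510 and 4270 in the KO and between 2220 and 3280 in the WT, with Cd14 and Ccr2 detected nowhere. Lyz2, which granulocytes share, was the only member detected in the KO. Of the 6 members on the array 1 was detected on each KO array, against 1, 3 and 4 on WT replicates 1 to 3. Adgre1, a macrophage surface gene, lay at 5.51, 5.82 and 5.66 in the KO arrays, against 5.23, 7.62 and 8.38 in the WT arrays, low in WT replicate 1 as in the KO. Fcgr1 was detected on 2 WT arrays, C1qa on 1, and neither on any KO array, and the part of these cells in the Coro1a difference was not tested. In such bulk samples, fewer cells of a type and less RNA per cell cannot be told apart.

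**Figure D3:**
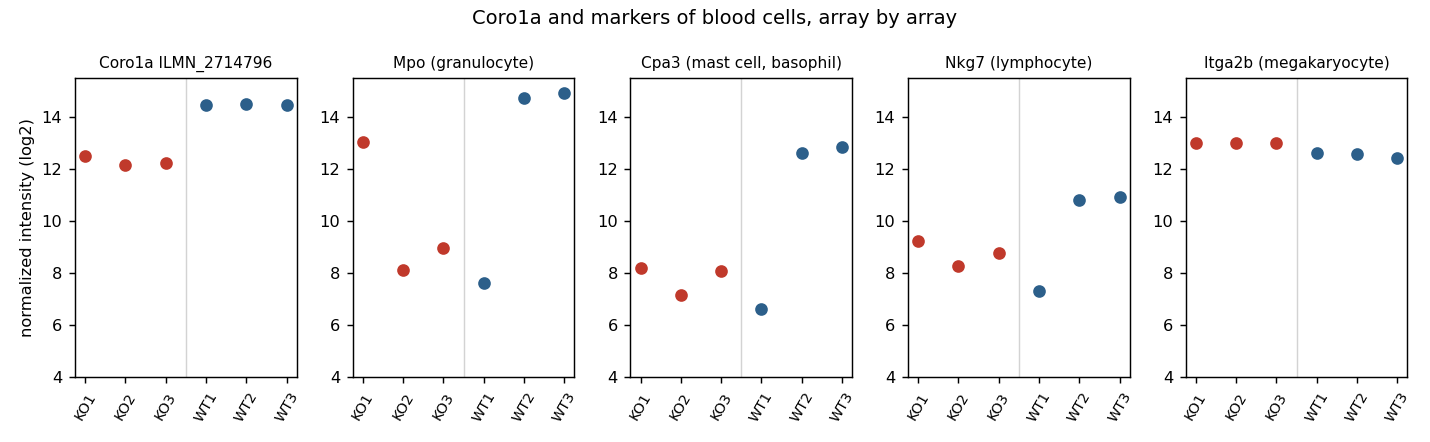
Normalized log2 intensity on each array, KO replicates 1 to 3 then WT replicates 1 to 3, of Coro1a and of 4 markers of blood cells. Coro1a, shown by its brightest probe after normalization, is level in the WT arrays and lower in every KO array. Mpo, Cpa3 and Nkg7 are high in WT replicates 2 and 3 and low in WT replicate 1, and Mpo is also high in KO replicate 1. Itga2b is higher in every KO array (13.01) than in the WT arrays (12.43 to 12.63).

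No tested gene among the known partners of coronins passed the test with the 6 arrays weighted equally. With array quality weights, a setting that called 1955 probes in all, 5 passed, with Arpc1b at 0.48, Gmfg at 0.48, Prkca at 0.70 and Rcc2 at 0.67 higher and Arpc5 at -1.13 lower (limma adjusted p from 0.013 to 0.044). With equal weights, over all 6869 tested genes taken by 1 probe each, 0.16% were called, 12.9% had an unadjusted p under 0.05, 18.2% had the groups apart, and the median difference was -0.01. Of 9 listed Arp2/3 subunits 6 were tested and none was called by limma, with 2 at an unadjusted p under 0.05 and a median difference of 0.20. Arpc1b, the form of its subunit that is abundant in blood cells, lay at log2 14.14, 13.90 and 13.66 in the KO arrays, against 13.50, 13.40 and 13.14 in the WT arrays, with the groups apart (limma adjusted p = 0.32). A second Arpc1b probe (ILMN_1227836) stood at 0.33, also higher in every KO array (limma adjusted p = 0.39). Arpc5 lay at 9.46, 9.03 and 9.02 in the KO arrays, against 9.32, 10.28 and 10.13 in the WT arrays, and the groups overlapped at WT replicate 1 (-0.74, SE 0.27, limma adjusted p = 0.33). Without WT replicate 1, a setting that called 639 of the 9403 tested probes, the Arpc5 difference was -1.04 (limma adjusted p = 0.026). Arpc5l, an alternative form of that subunit, stood at 0.35 (SE 0.26).

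Genes of filament disassembly stood near the median of all genes. Of 11 listed 6 were tested and none was called by limma. By 1 probe per gene none had an unadjusted p under 0.05, and the median was 0.06. Cfl1, the cofilin that coronins help to recruit, lay at log2 11.84, 11.44 and 12.03 in the KO arrays, against 11.89, 12.22 and 12.01 in the WT arrays, overlapping between groups (-0.27, SE 0.19, limma adjusted p = 0.50). Limk1 and Limk2, kinases that inhibit cofilin, stood at 0.14 and -0.21. Every KO array lay above every WT array for Limk1 (limma adjusted p = 0.61), and the groups overlapped for Limk2. A second probe of Wdr1 (ILMN_2460168), which speeds disassembly with cofilin, was lower in every KO array, at -0.47 (limma adjusted p = 0.34). A second Limk2 probe (ILMN_2728634) was detected on all 3 WT arrays and no KO array, and was bounded as at least 1.06-fold lower. Its WT detection p, from 0.038 to a rounded 0.05, lay close to the threshold. The first Wdr1 probe stood at -0.01, so the probes of that gene disagreed.

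Of 4 listed genes of branch turnover 3 were tested and none was called by limma, with none at an unadjusted p under 0.05 and a median of 0.37. Cttn, cortactin, which stabilises branches, stood at 0.41 (SE 0.18, limma adjusted p = 0.37), with its other probes at 0.78 and -0.07. Gmfg, which removes branches in blood cells, stood at 0.37 and Hcls1, the cortactin relative of blood cells, at 0.14. All 3 were higher in the KO by mean, and only Cttn had the groups apart. The median was 0.14 with the mast cell and basophil marker mean in the model and 0.10 without WT replicates 2 and 3.

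Among 13 listed signalling partners 11 were tested and none was called by limma, with 1 at an unadjusted p under 0.05 and a median of 0.09. That gene was Prkca, a form of protein kinase C, an enzyme family that phosphorylates Coro1b. It lay at log2 10.37, 10.69 and 10.70 in the KO arrays, against 10.36, 9.96 and 9.63 in the WT arrays, and the lowest KO array was barely above the highest WT array (0.60, SE 0.21, limma adjusted p = 0.33). Without WT replicate 1, a setting that called 639 of the 9403 tested probes, the Prkca difference was 0.79 (limma adjusted p = 0.048). Rcc2, a binding partner of Coro1c in the control of Rac1, stood at 0.42 (SE 0.20) and Prkcd at 0.32 (SE 0.17).

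Genes with a pattern over the arrays like that of Coro1a were sought by the root mean square difference between mean-centred log2 values over the 6 arrays, for the brightest Coro1a probe against 6868 other tested genes. Coro1a was chosen for being lower in the KO, so that its nearest genes are lower there too follows from the choice and is a description. The 5 nearest were Irak2, Cnn2, Ptges3l, Dcaf12 and Flna. The pair measured in both groups were Cnn2, the actin-binding calponin 2, at 0.29, and Flna, which cross-links actin filaments, at 0.40, where the median over all genes compared was 1.12. Cnn2 lay at log2 9.47, 9.50 and 9.61 in the KO arrays, against 11.91, 11.33 and 11.15 in the WT arrays, with a wider WT spread than Coro1a. Flna lay at 11.02, 11.27 and 10.89 in the KO arrays, against 12.83, 12.74 and 12.31 in the WT arrays. Irak2, Ptges3l and Dcaf12 were not well above background on any KO array, so their distance and rank rest on background readings there and are not given.

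**Figure D4:**
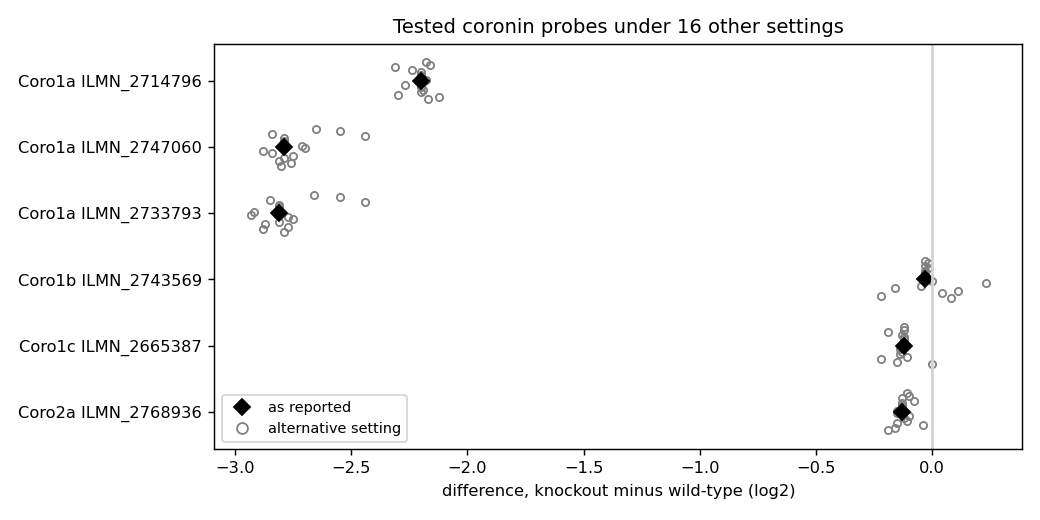
Difference of KO minus WT (log2) for the 6 tested coronin probes as reported (diamonds) and under 16 other settings of processing, samples or model (open circles). The Coro1a probes range from -2.93 to -2.12, and the probes of Coro1b, Coro1c and Coro2a range from -0.22 to 0.23.

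The coronin values were recomputed under 16 other settings. The brightest Coro1a probe ranged from -2.31 to -2.12, ILMN_2747060 from -2.88 to -2.44 and ILMN_2733793 from -2.93 to -2.44. Coro1b, Coro1c and Coro2a missed the threshold under each of the 16, with a lowest limma adjusted p of 0.40 for Coro1b and Coro1c and 0.50 for Coro2a.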

How the data were processed

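The members, lists and tests were chosen with earlier results of these data known. The deposited table holds, per the file headers, a raw intensity for each probe and array, a bead standard error, a bead number and a detection p-value. BeadStudio 3.2 and lumi are named in the submitters' processing notes, without roles. The authors' processed values are on a log2-like scale with equal quantiles in every array (median 8.22); the sources used here give neither its transform nor its background correction, so a unit need not be a doubling.

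With R 4.3.3 and limma 3.58.1, raw intensities were corrected by normexp with control levels inferred from the detection p, offset 16, quantile normalized and put on log2 (neqc). The offset shrinks differences of dim probes. limma compared KO with WT, two-sided, with Benjamini-Hochberg adjustment over 9403 tested probes. A gene in a list was represented by its tested probe with the highest mean. Partner genes named are the 3 per list with the smallest p, and the 5 genes nearest Coro1a are named; second probes, marker genes and Coro6 were named after their values were seen. The fit code was tested on simulated data. Replicate numbers were not used to pair the samples in the main fit. The number of arrays limits the precision.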

Additional observations from a re-analysis of the deposited data

How the results depend on the processing

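The alternatives were other background corrections, 75th percentile scaling, the authors' processed values, other filters, a replicate block, array weights, a marker covariate and fewer arrays. The count of 15 called probes was 9 with no filter and 1955 with array quality weights (1102 higher, 853 lower, against 2 higher and 13 lower). With 1 array left out it ran from 7 to 639: 639 without WT replicate 1 (351 higher, 288 lower), 11 without WT replicate 3, 8 without KO replicate 1, and 7 without WT replicate 2, KO replicate 2 or KO replicate 3. With the replicate block it was 6. Same-numbered samples did not deviate together (correlations -0.27, -0.13 and -0.09 for numbers 1 to 3). No pairing by number was seen, but deviations within groups of 3 arrays cannot exclude one. The Coro1b difference of -0.03 turned to 0.23 with array weights, 0.11 without WT replicate 3, 0.04 without KO replicate 1 and 0.08 without KO replicate 3, and it was -0.22 without KO replicate 2; it was called under none of these. The filament disassembly median of 0.06 was -0.06 with the mast cell and basophil marker mean as covariate and -0.08 without WT replicates 2 and 3, and ran from -0.03 (without WT replicate 3) to 0.10 with 1 array left out. The branch turnover median of 0.37 was 0.14 with that covariate and 0.10 without those 2 arrays. The Arp2/3 median stayed between 0.11 and 0.28 and that of signalling partners between 0.03 and 0.13. With array weights 5 partner genes were called, and without WT replicate 1 Arpc5 and Prkca. The causes were not tested. Probes near background limit what can be said of Coro2b and Coro7.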

Other observations

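Coro6, a further coronin that the choice of genes left out, had 3 probes on the array. None was well above background on any KO or WT array, with log2 values from 4.76 to 5.57 in the KO and from 4.90 to 5.75 in the WT.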
